A study of Mus musculus with 24 samples.

Results

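Dense runs of Foxa3 peaks in adult hepatocytes are stretches of the genome where the deposited Foxa3 peak list of these cells places at least 4 peaks with no more than 10 kb between neighbours. They were chosen by a positional rule on that 1 list. Peaks in 4 blocks shared by several lists of the series, on chromosomes 9, 10, 11 and 17, were dropped first, which removed 106 of 1091 peaks. The remaining 985 peaks formed 387 chains, and 63 of these chains, with 554 peaks, met the rule. Peaks in runs were 56.2% of the 985. The whole series held 18022 merged regions.

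The data are chromatin immunoprecipitation sequencing (ChIP-seq) peak lists of C57BL/6 mouse cells, 14 in all. The hepatocytes came from 10-week-old adult livers, carry no transfection label and gave 1 library each for Foxa1, Foxa2 and Foxa3 antibodies. All of these libraries have the number 4 and EGS in the title. The labels use EGS without expanding it, so it stands here only as a name. The titles do not say what the number 4 stands for, and the labels do not say how many livers were used. The other 11 lists came from induced hepatocyte-like (iHep) cells, made from fibroblasts of embryonic day 13.5. Line 4a1 was infected with Foxa1 and Hnf4alpha, line 4a2 with Foxa2 and Hnf4alpha, and line 4a3 with Foxa3 and Hnf4alpha, so Hnf4alpha is common to all 3 lines. Each line had 3 libraries with the antibody against its own Foxa factor, 2 with EGS and 1 without (non-EGS). Lines 4a2 and 4a3 also had 1 Flag library each. Among the iHep libraries with a Foxa antibody, the introduced factor, the line and the antibody cannot be told apart. No expression was measured in these files, so the labelled cell types were not checked against marker genes.

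The Foxa family of forkhead proteins binds DNA through a winged-helix domain and acts in liver and other endodermal tissues. Foxa1 and Foxa2 are known for opening closed chromatin ahead of other liver factors, and Foxa3 is the most liver-enriched member after birth. Hnf4alpha is a nuclear receptor that many hepatocyte genes depend on. A ChIP-seq peak marks a place where sheared chromatin pulled down with the antibody is denser than its surroundings. A sequence-specific factor usually gives separate narrow peaks.

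The runs were short and tightly packed. The median run spanned 6.29 kb, from 1.20 to 38.0 kb, and held a median of 7 peaks, from 4 to 38. Together the spans added up to 574 kb, of which peaks covered 117 kb (20.4%). Within runs the median gap between neighbouring peaks was 364 bp, and 375 of 491 gaps (76.4%) were under 1 kb. Joining peaks less than 1 kb apart would leave 179 sites in the 63 runs, and 13 runs would become a single site. Runs with more peaks also tended to be longer (Spearman's rho 0.727 over 63 runs, as a description, since a run grows with each peak it takes in).

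Peaks inside runs were wider than the others of the list, while their score ranks had the same median and a higher upper quartile. Their median width was 153 bp, against 120 bp for the 431 peaks outside runs, and 27 of them exceeded 500 bp, against 1 outside. The widest run peak measured 2148 bp and the widest other peak 901 bp. The score is the authors' own value per peak. Its scale is unstated, so it served only for ranking inside the list. The median rank was the 50.6th percentile in both sets, and the upper quartile was at 78.2 in runs and 70.3 outside. The top score decile took in 60 run peaks (10.8%) and 41 other peaks (9.51%). Both measures come from the list that defined the runs, so they are a description with no test.

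**Figure D1:**
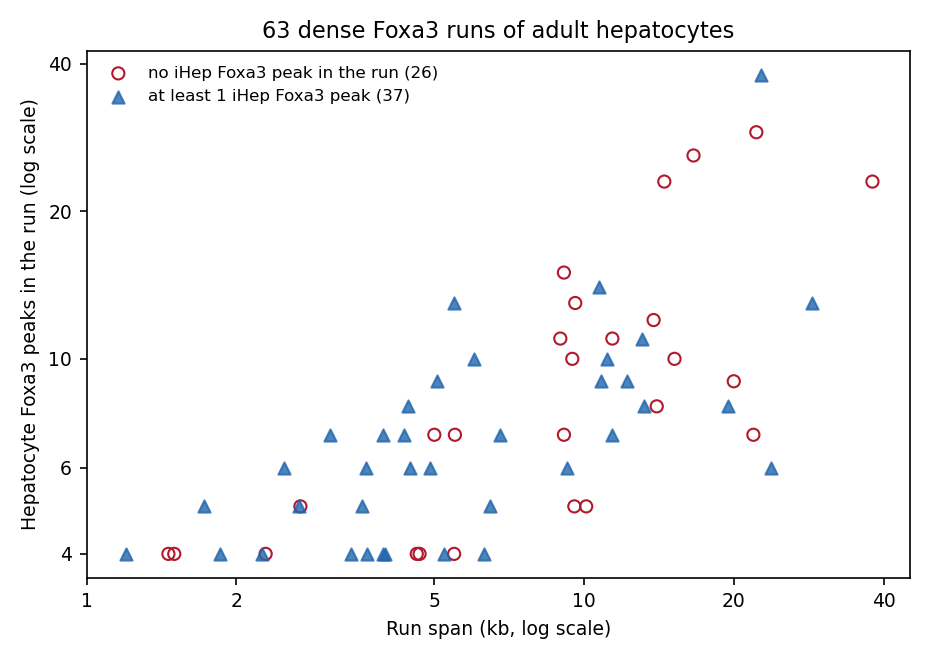
Each point is 1 of the 63 runs, with its span in kb on the horizontal axis and its number of hepatocyte Foxa3 peaks on the vertical axis, both on log scales. Open circles are the 26 runs with no Foxa3 peak of line 4a3 in their span and triangles the 37 runs with at least 1; of the 5 runs with 20 or more peaks, 4 are circles.

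A few runs held much of the total. The 18 runs with at least 10 peaks held 292 peaks, 52.7% of the run peaks, and the 5 with at least 20 held 139 (25.1%). At the other end, 15 runs had exactly 4 peaks, the fewest the rule admits. Runs lay on 17 chromosomes, with 10 on chromosome 11, 8 on chromosome 8 and 6 on chromosome 12. The list had 13 peaks on chromosome 13, 17 on chromosome 6, 10 on X and 1 on Y, and none of these belonged to a run. The share of peaks in runs was highest on chromosomes 12, 8 and 4, at 82.9%, 80.5% and 79.8%, against 56.2% over all chromosomes. Most peaks also lay in runs on chromosomes 5 (71.6%), 19 (61.1%), 14 (60.4%), 11 (53.7%) and 15 (52.4%).

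All positions are mm9, with starts counted from 1. No annotation or sequence of that build was at hand, so runs are named by position, no gene was assigned to any of them, and no peak sequence is shown. The largest run lay at chr4:150226804-150249468. It held 38 peaks over 22.7 kb, and they covered 51.2% of the span. Its widest peak measured 1357 bp, at chr4:150229918-150231274. Cut into 3 equal parts, this run had 12, 12 and 14 peaks, so the peaks filled it from end to end apart from 1 gap of 2380 bp near its start.

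The run with the next highest count, 29 peaks, lay at chr14:41917905-41940119 and was of similar length, 22.2 kb. Its peaks were narrower, with a median of 159 bp against 235 bp in the chromosome 4 run, and covered 22.0% of it. They were spread evenly, with 10, 10 and 9 peaks in the 3 parts. The median rank of its peaks was the 35.7th percentile, against the 78.8th in the chromosome 4 run.

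The run at chr5:90890065-90906699 was the most continuous of the 5 runs with 20 or more peaks. Its 26 peaks covered 67.6% of 16.6 kb, no gap exceeded 976 bp, and the whole run became 1 site when peaks within 1 kb were joined. Its highest-ranked peak, at chr5:90890457-90891160, stood at the 99.4th percentile of the list.

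The longest run was sparse. At chr12:7988106-8026106, 23 peaks were spread over 38.0 kb and covered 9.57% of it. They were uneven, with 6, 3 and 14 peaks in the 3 parts, and their median rank was low, at the 21.8th percentile. A run with the same count, at chr4:49547681-49562222, packed its 23 peaks into 14.5 kb at 31.2% coverage.

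The remaining 5 of the 10 runs with most peaks held 13 to 15 each. Those at chr8:112514431-112523543 (15 peaks, 9.11 kb), chr1:30996690-31007436 (14 peaks, 10.7 kb) and chr12:110088822-110098419 (13 peaks, 9.60 kb) were alike in coverage, at 25.6%, 33.0% and 33.9%. The run at chr7:29161199-29166668 was the most compact, with 13 peaks in 5.47 kb. The run at chr12:55811110-55839777 was the opposite, with 13 peaks over 28.7 kb. It came as 8 peaks in the first part, none in the middle and 5 in the last, on either side of a gap of 9931 bp, the largest gap that the rule joined. Its peaks had a median rank at the 92.0th percentile, the highest of any run.

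**Figure D2:**
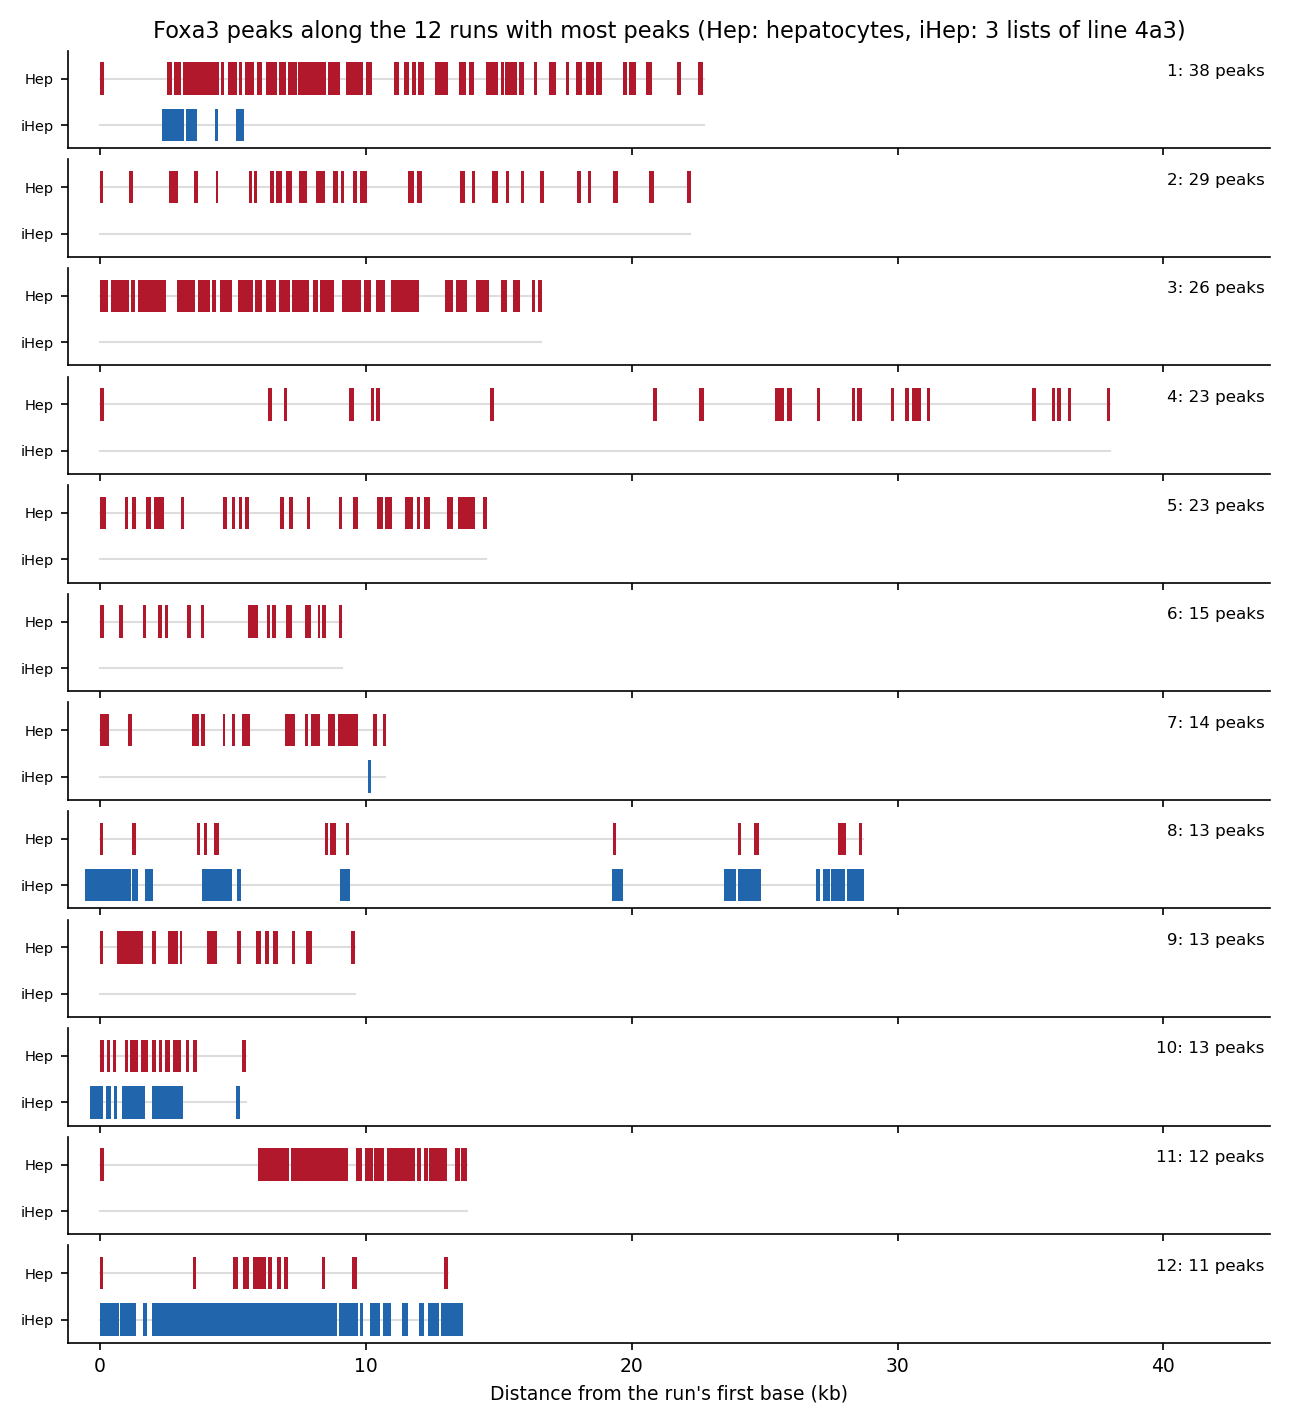
Each row is 1 of the 12 runs with most peaks, drawn to scale from its first base (horizontal axis, kb). The upper bars are hepatocyte Foxa3 peaks and the lower bars the peaks of the 3 Foxa3 lists of line 4a3 (peaks narrower than 40 bp would be drawn at 40 bp); 7 of the 12 rows have no lower bar, while in rows 8, 10 and 12 the lower bars follow or exceed the upper ones.

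The limits of the rule fell among similar chains. Just outside, 25 chains held 3 peaks (75 peaks, median span 4.04 kb), and just inside, 15 runs held 4 (60 peaks, median span 3.66 kb). The smallest gap left unjoined beside a run was 10486 bp, at chr2:164267899-164271295, and the largest joined was 9931 bp. The median run lay 310586 bp from the nearest peak outside it, and 13 runs had one within 20 kb. On chromosome 11, 3 runs of 4, 5 and 6 peaks followed each other between 87236195 and 87284839, with 16.1 and 12.9 kb between them. Their 15 peaks would join at a gap of 20 kb. The runs at chr9:46036516-46040176 and chr9:46076785-46082280 lay 36.6 kb apart.

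The first comparison asked which other lists have peaks where the hepatocyte Foxa3 list forms runs. Foxa3 peaks of line 4a3 were found in 37 of the 63 runs (58.7%), and iHep Foxa1 or Foxa2 peaks in 13 (20.6%). Among all 387 chains of any length the figures were 34.6% and 12.1%. A run is longer than most chains, so it has more room for a peak. At least 1 of the 13 other lists had a peak in 40 runs (63.5%), against 43.7% of all chains. The remaining 23 runs, with 252 peaks, held none.

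By library, the EGS replicate 1 list of Foxa3 in line 4a3 (1242 peaks outside the blocks) had a peak in 32 runs, 50.8% (exact 95% interval 37.9 to 63.6), against 23.5% of all chains. The non-EGS list (4316 peaks) had one in 35 runs, 55.6% (42.5 to 68.1), against 32.0%. EGS replicate 3, with 46 peaks in all, reached 7 runs, 11.1% (4.59 to 21.6), against 4.13%. The 2 longer lists largely named the same runs: 30 runs held peaks of both, 2 of the EGS list only and 5 of the non-EGS list only. All 7 runs of EGS replicate 3 were among those 30.

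Foxa1 and Foxa2 lists of iHep cells reached few runs, whatever their length. The 11404 Foxa2 peaks of the non-EGS list of line 4a2 were found in 9 runs, 14.3% (6.75 to 25.4), against 7.24% of all chains. Both EGS lists of that line reached 3 runs, 4.76%, against 2.84% of chains for replicate 1 and 4.65% for replicate 2. In line 4a1, EGS replicate 1 and the non-EGS list reached 5 runs each, 7.94%, against 3.88% and 2.07% of chains, and EGS replicate 2 reached 2 runs, 3.17%, against 2.33%. The longest list of the series thus had peaks in fewer runs than the much shorter Foxa3 EGS replicate 1 list, and the 2 longer Foxa3 lists lay above all 6.

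**Figure D3:**
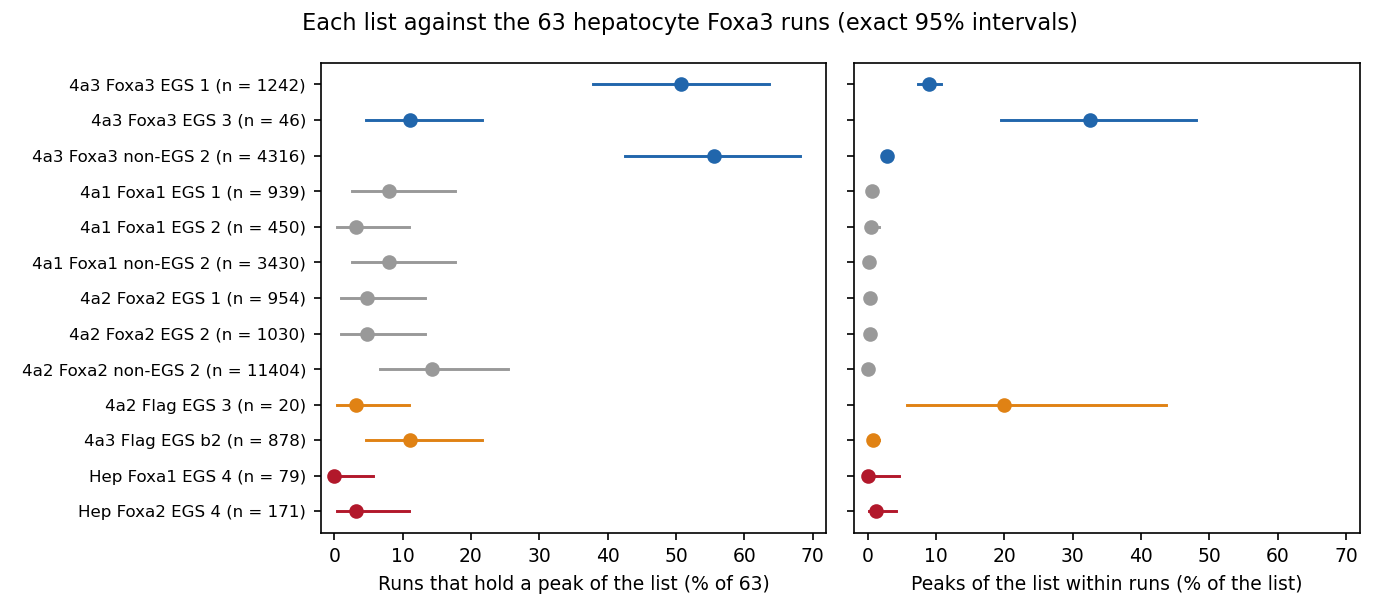
Points are the 13 other lists with exact 95% Clopper-Pearson intervals; the left panel gives the percentage of the 63 runs that hold a peak of the list and the right panel the percentage of the list's own peaks that lie in runs (n is the list's length outside the blocks). The Foxa3 lists of line 4a3 reach up to 55.6% of runs, the 6 Foxa1 and Foxa2 lists of iHep cells at most 14.3%, and both hepatocyte lists at most 3.17%.

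The 9 libraries are not all from separately numbered cultures: by line and number in the titles, Foxa1 EGS replicate 2 and non-EGS share a number, as do Foxa2 EGS replicate 2 and non-EGS, so the 6 libraries stand for 4 line and number pairs and the 3 Foxa3 libraries for 3. P-values over the 9 libraries treat them as separate and may be too small. Over libraries, the percentage of runs with a peak averaged 39.2% ± 24.4 (SD, n = 3) for Foxa3 and 7.14% ± 3.98 (SD, n = 6) for Foxa1 and Foxa2 together. Foxa3 was thus higher by 32.0 points (two-sided exact permutation over libraries, p = 0.0476, 84 assignments). It did not pass after Benjamini-Hochberg adjustment over the 3 tests made, at an adjusted p of 0.0714 (exact permutation test). The groups overlapped, since the list of 46 peaks reached fewer runs than the longest Foxa2 list. Without that list the difference was 46.0 points (exact p = 0.0714, the smallest that 28 assignments allow). With libraries of the same line and number averaged, a choice made after seeing the data, it was 32.2 points (n = 3 and 4, exact permutation p = 0.0571, the smallest that 35 assignments allow). With 1 run code common to both kinds of library, the values within it were 11.1% for Foxa3 EGS replicate 3 and 3.17% for Foxa1 EGS replicate 2. The excess was not confined to runs. Over all 985 hepatocyte Foxa3 peaks, the Foxa3 lists of line 4a3 overlapped 28.2% and the iHep Foxa1 or Foxa2 lists 3.65%. The test therefore cannot tell a trait of runs from one of the whole hepatocyte list.

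Measured against the length of each list, the Foxa3 lists placed more of their peaks in runs. The shares were 8.94% of EGS replicate 1 (111 peaks), 32.6% of EGS replicate 3 (15 of 46 peaks) and 2.83% of the non-EGS list (122 peaks). In the Foxa1 and Foxa2 lists they lay between 0.0877% and 0.639%. The groups did not overlap. The means were 14.8% ± 15.7 (SD, n = 3) and 0.320% ± 0.201 (SD, n = 6), and the difference of 14.5 points gave an exact permutation p of 0.0238, the smallest that 84 assignments allow, with an adjusted p of 0.0714. Without EGS replicate 3 the difference was 5.56 points (exact p = 0.0714). That hepatocyte Foxa3 peaks recur in line 4a3 was known before these runs were examined. Neither this share nor the percentage of runs reached is therefore independent support. The share of each list in hepatocyte Foxa3 chains of any size was not counted. Since 28.2% of all 985 hepatocyte peaks were overlapped by Foxa3 lists and 3.65% by Foxa1 or Foxa2 lists, the excess cannot be assigned to runs.

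The hepatocyte lists of the other antibodies, with the same number and run code in their titles, were short and reached few runs, as they reached few chains of any length. The Foxa1 list, with 79 peaks outside the blocks, had no peak in any of the 63 runs, which allows a share of up to 5.69% of runs by the exact interval, and it touched 2.07% of all chains. The Foxa2 list, with 171 peaks, had 1 peak in each of 2 runs, 3.17%, against 4.13% of chains. Both runs lie on chromosome 8, at chr8:129113481-129118545 and chr8:96901844-96921329. Each hepatocyte antibody has 1 library of unknown depth, so these counts have no replicate check.

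Peak by peak, the hepatocyte Foxa3 sites inside runs were found in line 4a3 as often as those outside. A Foxa3 peak of line 4a3 overlapped 157 of 554 run peaks, 28.3% (24.6 to 32.3), and 121 of 431 other peaks, 28.1% (23.9 to 32.6). The background over all 985 peaks was 28.2%. The values matched in each library: 14.8% and 15.1% in EGS replicate 1 (background 14.9%), 1.81% and 2.09% in EGS replicate 3 (1.93%), and 26.0% and 26.2% in the non-EGS list (26.1%). The intervals treat peaks as independent, which neighbouring peaks of a run are not, so they are too narrow.

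For Foxa1 and Foxa2 peaks the balance over all runs tilted to the peaks outside runs, but not in runs of 4 peaks. Any of the 6 iHep lists overlapped 9 run peaks, 1.62% (0.745 to 3.06), and 27 other peaks, 6.26% (4.17 to 8.98), with a background of 3.65%. The 9 run peaks lay in 8 runs, and single lists overlapped 0 to 5 of the 554. By size, in classes drawn up after the values were seen, the share was 10.0% of the 60 peaks in runs of 4. It was 1.49% of 202 in runs of 5 to 9 and 0 in larger runs. Outside runs it was 8.26% of single peaks and 3.70% of peaks in chains of 2 or 3. Over all peaks the backgrounds were 1.32%, 0.711% and 0.406% for Foxa1 EGS replicates 1 and 2 and non-EGS, and 0.914%, 1.42% and 1.93% for Foxa2 EGS replicates 1 and 2 and non-EGS. In all 9 libraries the percentage was lower in runs than outside, with differences of -0.283 to -0.225 points for Foxa3 and -2.35 to -0.103 points for Foxa1 and Foxa2. The mean difference was -0.263 ± 0.0324 points (SD, n = 3) and -1.31 ± 0.832 points (SD, n = 6), and the gap between both kinds of library did not pass the threshold (difference 1.05 points, exact permutation p = 0.0952, adjusted p = 0.0952). This difference changed sign under 4 other settings.

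**Figure D4:**
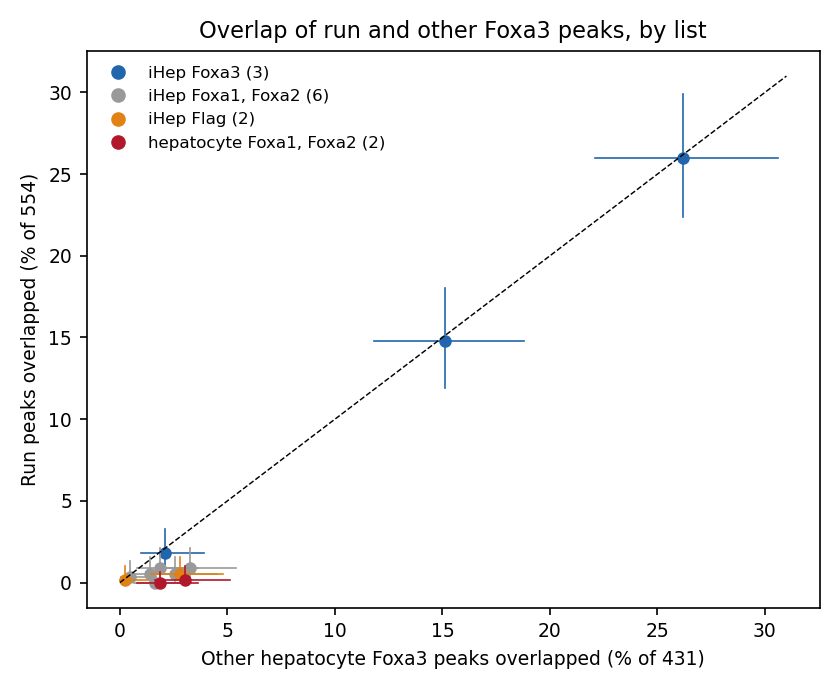
For each of the 13 other lists, the percentage of the 431 hepatocyte Foxa3 peaks outside runs that it overlaps (horizontal axis) is set against the same percentage of the 554 run peaks (vertical axis), with exact 95% intervals and a dashed line of equality. The 3 Foxa3 lists of line 4a3 sit on the line, at 26.2% and 26.0% for the non-EGS list, and the other lists lie at or below it, under 4% on both axes.

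The even match over all run peaks hid a contrast between runs of different size. Single peaks of the hepatocyte list were overlapped by a Foxa3 peak of line 4a3 in 25.6% of 242 cases and members of chains of 2 or 3 in 31.2% of 189. The share was 46.7% of the 60 peaks in runs of 4, 37.6% of 202 in runs of 5 to 9, 31.4% of 153 in runs of 10 to 19, and 3.60% of 139 in runs of 20 or more. Both longer Foxa3 lists gave their lowest share in the largest runs: 1.44% against 14.0% to 21.7% elsewhere in EGS replicate 1, and 3.60% against 22.3% to 45.0% in the non-EGS list. These size classes were drawn up after the values were seen and hold only 5 runs at the top, so no test was made. In the 58 smaller runs 36.6% of 415 peaks were overlapped. The 5 largest runs also had the highest median peak width of the 6 size classes, 188 bp against 120 to 154 bp, and the highest median score rank, the 58.9th percentile against the 50.6th to the 53.5th. The part of peak width and score in this contrast was not tested.

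Many single runs were either wholly overlapped or not at all. In 12 runs every peak was overlapped by a Foxa3 peak of line 4a3 (71 peaks, at most 11 per run), and in 29 runs no peak was. Of those 29, 26 held no Foxa3 peak of line 4a3 at all. Over all 985 hepatocyte Foxa3 peaks, 28.2% were overlapped. That share is per peak, and the matching share of other chains was not counted, so whether the pattern is particular to runs was not tested. Some other list had a peak in 7 of the 18 runs with at least 10 peaks (38.9%) and in 33 of the 45 smaller runs (73.3%), against the 43.7% of all chains, most of which are single peaks. The share in the larger runs was near that background, but a larger run has more room for a peak, so the comparison is not like for like. The 5 largest runs that no other list reached were those at chr14:41917905-41940119, chr5:90890065-90906699, chr12:7988106-8026106, chr4:49547681-49562222 and chr8:112514431-112523543, with 29, 26, 23, 23 and 15 peaks. Across the 63 runs, Spearman's rho between the number of hepatocyte peaks and the number of line 4a3 Foxa3 peaks was -0.04. A Foxa3 peak of line 4a3 was present in 7 of the 18 runs with at least 10 peaks (38.9%) and in 30 of the 45 smaller ones. Among all chains the share was 34.6%, so the larger runs were near that background too.

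**Figure D5:**
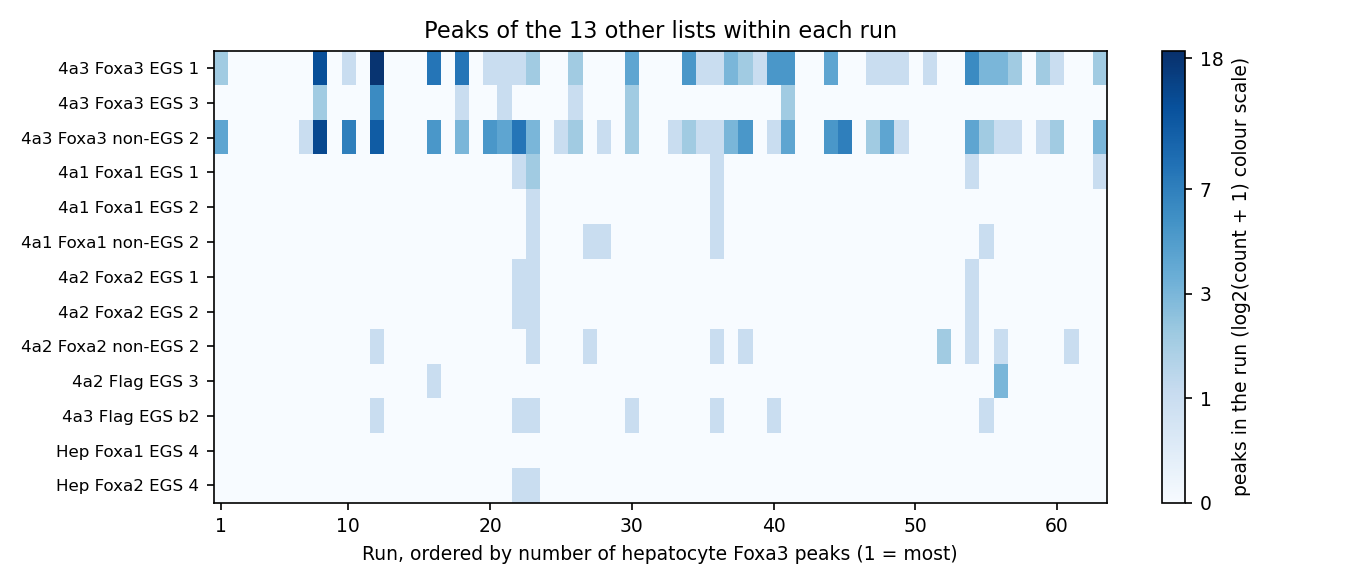
Columns are the 63 runs in order of their number of hepatocyte Foxa3 peaks (1 has 38 peaks, 63 has 4), rows the 13 other lists with the replicate number last, and the shade the number of peaks of that list in the run on a log2(count + 1) scale. The Foxa3 rows of EGS replicate 1 and non-EGS are filled most often, with up to 18 peaks in a run, runs 2 to 6 are blank in every row, and the hepatocyte Foxa1 row is blank throughout.

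The 26 runs without a Foxa3 peak of line 4a3 were somewhat longer and ranked lower than the 37 runs with one. Their median span was 9.52 kb against 5.07 kb, their median number of peaks 7.50 against 6, and their median covered share 20.8% against 18.2%. The median of the runs' median score ranks was the 43.1st percentile against the 58.9th. The 2 classes overlapped on every one of these measures, with spans of 1.46 to 38.0 kb and 1.20 to 28.7 kb.

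In most runs line 4a3 had fewer Foxa3 peaks than hepatocytes: a single list reached the hepatocyte count in 5 of the 37 runs. The 5 runs with most line 4a3 peaks over its 3 lists are described next. The run at chr19:5836671-5849741 held 11 hepatocyte peaks and 35 of line 4a3: 18 in EGS replicate 1, 6 in EGS replicate 3 and 11 in the non-EGS list. All 11 hepatocyte peaks were overlapped. A single non-EGS peak of 6957 bp spans the middle of this run and by itself takes in most of them. The run at chr12:55811110-55839777 held 13, 2 and 14 peaks of the 3 lists and had 10 of its 13 hepatocyte peaks overlapped.

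Another 3 runs followed in the number of line 4a3 peaks. At chr5:143657260-143668353, 8 peaks of EGS replicate 1 and 5 of the non-EGS list met 9 of 10 hepatocyte peaks, with none of EGS replicate 3. The run at chr5:125864834-125870830 held 8, 1 and 3 peaks and had 8 of 10 overlapped. In the short run at chr1:135973119-135975604, 5, 2 and 4 peaks met all 6 hepatocyte peaks within 2.49 kb.

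The largest run differed from these. At chr4:150226804-150249468, EGS replicate 1 had 2 peaks and the non-EGS list 4, and they overlapped 5 of 38 hepatocyte peaks. All of them lay near 1 end, within the first 6 kb of the run. In the run at chr7:29161199-29166668, 1 and 7 peaks of the same lists overlapped 10 of 13. At chr1:30996690-31007436 a single non-EGS peak lay between hepatocyte peaks and overlapped none of the 14.

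By the same rule, the Foxa3 lists of line 4a3 had runs of their own: 45 in EGS replicate 1, 2 in EGS replicate 3 and 201 in the non-EGS list. Of the hepatocyte runs, 12, 1 and 22 overlapped a run of those lists. As a share of the iHep lists' own runs these were 12 of 45, 1 of 2 and 22 of 201. Of the line 4a3 peaks inside hepatocyte runs, 71 of 111 (64.0%), 9 of 15 (60.0%) and 91 of 122 (74.6%) overlapped a hepatocyte peak. These overlaps have no matching share over all chains, so whether they are particular to runs was not tested. Non-EGS peaks inside the runs had a median width of 338 bp, against 180.0 bp over that whole list, and EGS replicate 3 peaks one of 152 bp. The 6 Foxa1 and Foxa2 lists had 58 such runs together, of which 54 came from the Foxa2 non-EGS list and 1 overlapped a hepatocyte Foxa3 run.

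Peaks of the most lists met in a few runs that were not the largest. At chr8:96901844-96921329, 10 of the 13 other lists had a peak: all 6 Foxa1 and Foxa2 lists of iHep cells, 2 Foxa3 lists of line 4a3, its Flag list and hepatocyte Foxa2. Only 2 of its 8 hepatocyte Foxa3 peaks were overlapped by line 4a3. One of these, at chr8:96910452-96910553, was the highest-ranked peak of the run, at the 96.0th percentile. The run at chr8:129113481-129118545 held peaks of 7 lists, among them hepatocyte Foxa2, and 8 of its 13 iHep peaks came from the Foxa3 non-EGS list. All 9 of its hepatocyte Foxa3 peaks were overlapped.

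At chr8:87498980-87502963, 6 lists met in a run of 4 peaks, with 6 and 4 Foxa3 peaks of line 4a3 and 1 peak each of 4 Foxa1 or Foxa2 lists. The run at chr3:82812036-82835805 was among the longest, at 23.8 kb, and the thinnest, with 6 peaks covering 3.77%. It held 1 peak each of 7 lists, 4 of them Foxa1 or Foxa2, yet none of these overlapped any of its 6 hepatocyte peaks. The fifth run by number of lists was that at chr19:5836671-5849741, with 5.

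Of the 13 runs with an iHep Foxa1 or Foxa2 peak, 10 also held a Foxa3 peak of line 4a3 and 3 did not. The 3 were chosen for naming after their values were seen. They lie at chr8:41948244-41970114, chr18:85023629-85028300 and chr11:68908100-68909596, with 2, 2 and 1 such peaks.

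The Flag list of line 4a3, with 878 peaks outside the blocks, reached 7 runs, 11.1% (4.59 to 21.6), against 5.68% of all chains. All 7 also held a Foxa3 peak of line 4a3, and 5 held an iHep Foxa1 or Foxa2 peak. It overlapped 3 run peaks (0.542%) and 12 other peaks (2.78%), with a background of 1.52%. The Foxa3 EGS replicate 1 list, of the same line and run code (1242 peaks), reached 50.8% of runs. That list overlapped 14.8% of run peaks and 15.1% of other peaks. The titles number both libraries differently and their depth is unknown, so the part of the antibody was not tested. Of the 20 Flag peaks of line 4a2 outside the blocks, 4 lay in 2 runs, 3 of them at chr9:46036516-46040176. Those 2 runs are 3.17% of all runs (0.387 to 11.0), against 0.775% of all chains. The 20 Flag peaks overlapped 1 run peak and 1 other peak (background 0.203%). The hepatocyte Foxa1 list overlapped 8 peaks outside runs and none inside (background 0.812%), and hepatocyte Foxa2 overlapped 13 outside and 1 inside (background 1.42%). Counting every other list, 158 run peaks (28.5%) and 152 other peaks (35.3%) were overlapped, with a background of 31.5%.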

How the data were processed

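The files were 14 peak lists, each tied to 1 library. The authors deposited a chromosome, start, end, name and score per peak. The submitters' processing notes name BWA 0.6.2, MACS2 2.1.0, bedtools 2.16.2 and build mm9, with no role or setting. The peak threshold, the use of inputs and the read depth are unknown. The 10 input samples were not analysed here. That deposited score has no stated scale and gave ranks inside a list only.

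In Python 3.11.15 (scipy 1.17.1, pandas 2.3.3, numpy 2.4.6), peaks touching 4 blocks were dropped from every list: chr9:3000010-3038304, chr10:7229710-7237012, chr11:3041272-3100001 and chr17:39980018-39985706. Chaining and overlap (at least 1 bp) were checked on simulated intervals. A run spans its first peak's start to its last peak's end. Libraries were compared by exact two-sided permutation of 3 Foxa3 against 6 Foxa1 or Foxa2 iHep libraries, adjusted by Benjamini-Hochberg over 3 tests. Labels do not say that cultures are separate inductions, so p-values measure the spread between these libraries, which may be technical. Intervals are Clopper-Pearson and cover counting error only.

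The runs and tests were chosen with earlier results of these data known. Runs were named by rule: the 10 with most peaks, then 5 each by span, by number of other lists, by line 4a3 Foxa3 peaks and by peaks among those no other list reached. A planned look at genes and marker lists needed an mm9 annotation and was not made, since the RefSeq table at hand is of another build. Alternatives covered the gap, the chain length, peak merging, score cuts, overlap, blocks, permutation within EGS or culture number, and leaving out libraries.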

Additional observations from a re-analysis of the deposited data

How the results depend on the processing

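The number of runs, 63, was 65 with gaps of up to 5 or 20 kb, 88 with chains of at least 3 and 67 with the blocks kept. It was 41 with chains of at least 6, 29 (209 peaks in place of 554) with the top-scoring 50% of the list, and 18 (94 sites) after peaks within 1 kb were merged. For the percentage of runs reached, the Foxa3 excess kept its sign in all 23 alternatives (16.7 to 46.0 points), and 5 passed the threshold: gaps of 5 kb (31.8 points), gaps of 20 kb (29.0), chains of at least 6 (33.3), the top 300 peaks (28.2) and the top-scoring 50% (32.2). The same 5 passed for the percentage of a list in runs, at 13.7, 16.8, 13.6, 4.84 and 11.3 points, within 4.84 to 20.5 over 23 alternatives. Merging peaks within 1 kb in every list lowered both differences, from 32.0 to 16.7 points for runs reached and from 14.5 to 6.27 for the list share. Adjusted p-values of these exact tests ran from 0.0357 to 0.214 for both. The exact permutation p of the list share was 0.0238 in the main setting and in all 5 that passed. For the percentage of runs reached it stayed at 0.0476 with gaps of 5 and 20 kb. In those cases only the adjustment changed, through the p-values of the other tests, so passing is no stronger evidence. The last test took the overlapped percentage of run peaks minus that of other peaks, and compared Foxa3 lists with Foxa1 and Foxa2 lists. This contrast between both kinds of library passed with gaps of 5 kb (1.79 points) and 20 kb (2.96). It reversed with chains of at least 6 (-1.12), the top 300 peaks (-5.32), peaks merged within 1 kb (-2.12) and the blocks kept (-2.33). The cause was not tested. Permuting within culture numbers as a replicate block left the differences at 32.0, 14.5 and 1.05 points with exact p of 0.133, 0.133 and 0.267, where 0.133 is the smallest that 15 assignments allow. The labels do not say that a number pairs cultures across lines. Averaging libraries of the same line and number, added after seeing the data, gave 32.2, 14.4 and 0.949 points, each at the lowest exact p its 35 assignments can give (0.0571). With EGS libraries only, no exact p under 0.133 is possible. Depth is unknown, so an absent peak may be one that was not detectable.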
